A study of Sus scrofa with 6 samples.

Results

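The 2 hypothalamus libraries of the series, from estrous and from anestrous primiparous sows, were compared with the 2 pituitary and the 2 ovary libraries of the same study, so that 2 of the 6 libraries stand against 4 and both reproductive states are on each side. The sows were landrace x large white crosses. One group was in normal estrus and the other was anestrous with inactive ovaries, and the labels give 3 sows for each state without saying whether the RNA of the 3 was pooled or came from 1 of them. Whole organs were frozen, total RNA was extracted and libraries were prepared with a TruSeq RNA kit, so neurons, glia, vessels and any attached neighbouring tissue were read together, and fewer cells of a type and less RNA per cell cannot be told apart. The tissue is compared here, not the state: the 2 libraries of a tissue served as its replicates although they differ in state, and the p-values measure only the spread between these libraries.

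The hypothalamus lies at the base of the brain and joins the nervous system to the endocrine system. Its neurosecretory neurons release peptides into the portal vessels that drive the anterior pituitary, or send axons into the posterior pituitary, and the pituitary gonadotropins in turn act on the ovary. Around these neurons the tissue holds the cells of any brain region: fast signalling neurons that use glutamate or GABA, myelinating oligodendrocytes, astrocytes, microglia, and along the third ventricle the ependyma and its specialised cells, the tanycytes.

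The libraries held 15314325 to 17384789 reads, recovered as whole numbers from the deposited values, and levels are given as reads in each 1000000 of the library (RPM). Each pair of values below is given in the order estrous, anestrous. Between 15182 and 15591 of the 19465 genes listed had at least 1 read in a library. The 10 most abundant genes held 20.3% and 21.9% of the reads in the hypothalamus, 33.3% and 35.9% in the pituitary, against 8.55% and 11.5% in the ovary. Across the 13917 genes tested below, the correlation of log2(RPM + 1) was 0.985 between the hypothalamus libraries. It was 0.984 between the pituitary libraries and 0.941 between the ovary libraries. Between hypothalamus and pituitary it was 0.790 to 0.800, and between hypothalamus and ovary 0.645 to 0.678. These correlations run across genes, which are not independent replicates, and describe how alike the libraries were. The labelled tissues carried their own markers: growth hormone (GH1) had 63509 and 68548 RPM in the pituitary and inhibin alpha (INHA) had 5575 and 882 RPM in the ovary, while the astrocyte filament protein GFAP had 14495 and 9342 RPM in the hypothalamus.

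Genes of neurons, myelin and astrocytes stood far higher in the hypothalamus than in both other tissues, and genes of ribosomes and connective tissue stood lower. A gene was called when its difference on the log2(RPM + 1) scale was at least 1, which is a 2-fold difference at high levels, and its Benjamini-Hochberg adjusted p from limma was at most 0.05. Genes were tested when they had at least 1 RPM in at least 2 libraries, so a gene at this level in 1 tissue alone passed through that tissue. The direction of such a gene, and part of any count that holds it, follows from the filter. Among such genes below are SLC32A1, HTR2C, MAG, FGFR3, HAPLN2, TTR, IAPP and CALCA. Of 13917 genes tested, 2958 (21.3%) were called higher than the mean of pituitary and ovary and 1665 (12%) lower. Against the pituitary alone 3099 genes (22.3%) were higher and 1223 (8.79%) lower, and against the ovary alone 3055 (22%) were higher and 2527 (18.2%) lower. Called in the same direction against each of the other tissues were 1906 genes higher (13.7%) and 654 lower (4.7%), and these comparisons share the hypothalamus libraries. The counts of each list below are to be read beside these shares of all tested genes. Both hypothalamus libraries lay above all 4 others for 4262 tested genes (30.6%) and below all 4 for 2749 (19.8%). Each library was also left out in turn, where the library left in its tissue is taken to vary like the others. Refitted on the same 13917 genes, 1194 genes were higher and 294 lower than both without the estrous hypothalamus library, and 1124 and 199 without the anestrous one. Without the estrous pituitary library the counts were 1443 and 323, and without the anestrous one 1238 and 301. Against the pituitary alone 1617 genes were higher and 625 lower without the estrous hypothalamus library, 1607 and 486 without the anestrous one, and 1603 and 662 without the anestrous pituitary library, while 651 were lower without the estrous pituitary one. Against the ovary alone 1414 genes were lower without the anestrous hypothalamus library. Against the mean, 1088 genes were lower without the estrous and 777 without the anestrous hypothalamus library. When the low-level filter was applied again after a hypothalamus library was left out, 13408 or 13436 genes were tested, and 900 and 841 were higher than both. On recovered reads, edgeR called 1531 genes higher and 1029 lower than both, so the higher share of called genes was 59.8% there against 74.5% here. The split also depended on the scaling. With the trimmed mean of M values in place of the library total, limma called 1656 genes higher and 856 lower than both (65.9% higher). Against the pituitary alone it then called 2371 higher and 1745 lower.

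**Figure D1:**
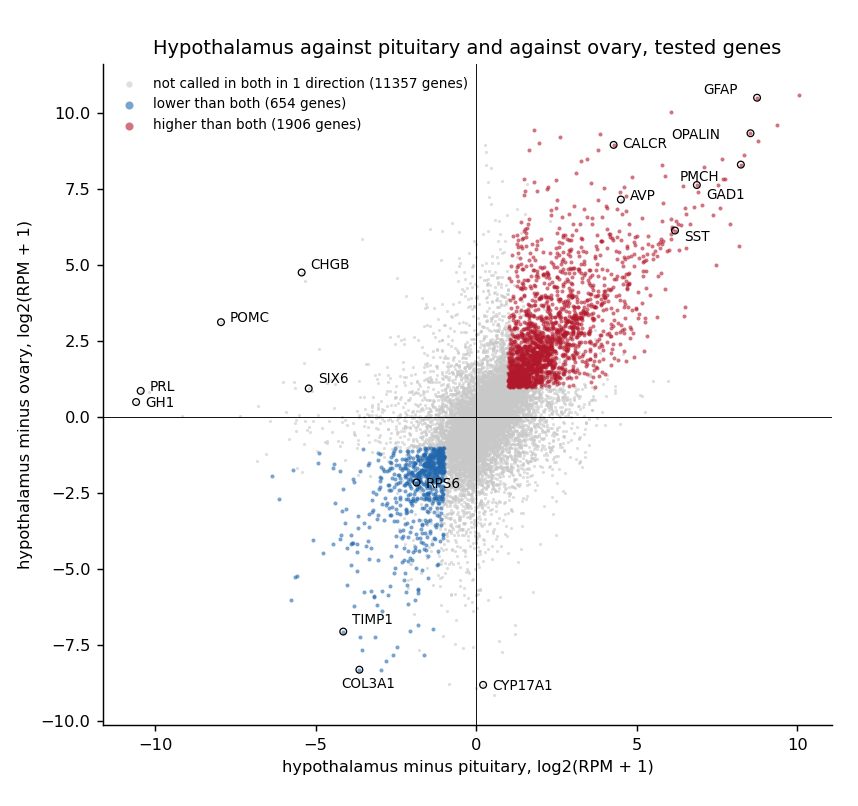
Difference of hypothalamus minus pituitary (x axis) and hypothalamus minus ovary (y axis), both in log2(RPM + 1), for each of 13917 tested genes, with genes called in the same direction against both tissues in red (1906 higher) and blue (654 lower). GFAP lies at the far upper right, COL3A1 and TIMP1 at the lower left, and the pituitary hormones PRL and GH1 at the far left near 0 on the y axis.

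The named genes with the largest difference that held against both tissues belonged mostly to glia and to inhibitory or neuropeptide neurons. GFAP, the intermediate filament of astrocytes, had 14495 and 9342 RPM in the hypothalamus, 28.5 and 23.9 RPM in the pituitary and 8.33 and 5.78 RPM in the ovary, a difference from the mean of the other tissues of 9.63 ± 0.26 (adjusted p = 2.6e-05), where the error is the standard error of the fit and the p is from limma. The 2 hypothalamus libraries lay far above the 4 others and close to each other. The others given here were the transferrin gene TF (8.93 higher), the oligodendrocyte membrane protein OPALIN (8.94), MLC1 of astrocyte end feet (8.49), melanin-concentrating hormone PMCH (8.28), myelin-associated glycoprotein MAG (7.8), the urea transporter SLC14A1 (7.77), the calcium sensor VSNL1 (8.08), the myelin cytoskeletal protein ERMN (7.6), brevican BCAN (7.67), the tubulin TUBB4A (7.24), the glutamate transporter SLC1A3 (7.16) and the GABA-synthesising enzyme GAD1 (7.26), all as log2 differences from the mean of the other tissues. Among these genes the standard error was largest for TUBB4A, at 0.67, whose ovary libraries read 0.323 and 7.0 RPM.

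Among the hypothalamic hormones and neuropeptides, 27 of 30 listed genes were found by name and 20 were tested. Of these, 17 were higher than the mean of the other tissues and 2 lower, and 13 were higher than both tissues separately and 1 lower, with a median difference of 3.49 against 0.11 over all tested genes. Members such as PMCH, HCRT, SST and CRH passed the low-level filter through the hypothalamus libraries alone. These counts and the median thus follow in part from the filter. PMCH, made by lateral hypothalamic neurons that act on feeding and sleep, was the most different, with 289 and 546 RPM in the hypothalamus, 0.235 and 0.403 RPM in the pituitary and 0.258 and 0.243 RPM in the ovary. Hypocretin (HCRT), the wake-promoting peptide of the same region, had 96.8 and 229 RPM in the hypothalamus, 0.941 and 0.403 RPM in the pituitary and 0.517 and 0.0608 RPM in the ovary, a difference of 6.7 ± 0.39 (adjusted p = 0.00012). Somatostatin (SST), which inhibits growth hormone release, had 69.5 and 74.6 RPM in the hypothalamus, no read in the pituitary libraries and 0.0646 and 0 RPM in the ovary. For each of these peptides both hypothalamus libraries lay above the 4 others, beside 30.6% of all tested genes. Thyrotropin-releasing hormone (TRH) had 25.5 and 33.4 RPM in the hypothalamus, 0.647 and 0.173 RPM in the pituitary and 0.194 and 1.83 RPM in the ovary, a difference of 4.24 ± 0.38 (adjusted p = 0.00048). Corticotropin-releasing hormone (CRH) was low but separate, with 5.94 and 4.62 RPM in the hypothalamus, 0 and 0.115 RPM in the pituitary and 0.129 and 0 RPM in the ovary and a difference of 2.56 ± 0.19 (adjusted p = 0.00025). PACAP (ADCYAP1), a peptide that raises cyclic AMP in its target cells, was nearly equal in the hypothalamus libraries at 56.9 and 56.5 RPM and had at most 1 read in each other library. CART (CARTPT), a satiety peptide, had 65.5 and 47.2 RPM against 3.41 and 0.978 RPM in the pituitary and no read in the ovary. The remaining peptides higher than both tissues were TAC3 (50.6 and 33.1 RPM in the hypothalamus), TAC1 (31.7 and 28.5), GAL (23.1 and 10.8), PNOC (10.6 and 12.7), CCK (12.6 and 10.1) and KISS1 (9.08 and 1.45). GAL lost its call without any 1 of the hypothalamus or pituitary libraries, with adjusted p from 0.056 to 0.15, and the members lower than the mean numbered 1 without each library other than the estrous hypothalamus one.

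The peptides that control reproduction and the magnocellular hormones differed in how even they were between the hypothalamus libraries. Gonadotropin-releasing hormone (GNRH1), the signal for LH and FSH release, had 4.57 and 1.77 RPM in the hypothalamus, 0.235 and 1.5 RPM in the pituitary and 0.0646 and 0.122 RPM in the ovary; it was higher than the mean of the others by 1.5 ± 0.39 (adjusted p = 0.023), but the difference from the pituitary missed the threshold (adjusted p = 0.09). Kisspeptin (KISS1), which excites the GnRH neurons, had 9.08 and 1.45 RPM in the hypothalamus, 0 and 0 RPM in the pituitary and 0.0646 and 0 RPM in the ovary, a difference of 2.29 ± 0.53 (adjusted p = 0.015). Neurokinin B (TAC3), released by the same kisspeptin neurons, had 50.6 and 33.1 RPM in the hypothalamus, 0.118 and 0 RPM in the pituitary and 6.46 and 4.81 RPM in the ovary, with the ovary between the other tissues. The hypothalamus libraries thus lay closer together for TAC3 than for KISS1. Vasopressin (AVP) had 896 and 27.5 RPM in the hypothalamus and 6.06 and 6.04 RPM in the pituitary, so its difference from the mean of the others was 5.83 ± 1.25 (adjusted p = 0.011) and that from the pituitary alone was not called (adjusted p = 0.052). Oxytocin (OXT) had 262 and 36.2 RPM in the hypothalamus, 27.4 and 13.3 RPM in the pituitary and 0.0646 and 0.183 RPM in the ovary, again called against the mean (4.38 ± 0.76 (adjusted p = 0.0053)) and not against the pituitary (adjusted p = 0.087). For both magnocellular hormones the estrous library was the higher one, and with 1 library a state this state difference has no replicate. The values of this family leaned on single libraries. Without the estrous hypothalamus library the differences were 3.35 for AVP, 1.27 for KISS1 and 1.0 for GNRH1, which then was not called (adjusted p = 0.18). KISS1 also missed the threshold without either pituitary library (adjusted p = 0.054 and 0.055), and so did GNRH1 without the estrous one (adjusted p = 0.057).

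Not all members were highest in the hypothalamus. Proopiomelanocortin (POMC), the precursor of ACTH and of melanocyte-stimulating hormone, had 307 and 47.1 RPM in the hypothalamus against 47518 and 18906 RPM in the pituitary and 13.8 and 12.1 RPM in the ovary, which placed it 188-fold below the pituitary and 13.7-fold above the ovary. Galanin-like peptide (GALP) was lower than both other tissues, with 0.392 and 0.126 RPM in the hypothalamus, 4.23 and 4.03 RPM in the pituitary and 14.8 and 6.21 RPM in the ovary. Neurotensin (NTS) was not called against the mean or the pituitary, with 19.9 and 32.3 RPM in the hypothalamus and 46.1 and 43.7 RPM in the pituitary. Enkephalin precursor (PENK) had 76.3 and 83.4 RPM in the hypothalamus and 26.2 and 43.7 RPM in the pituitary and 31.1 and 12 RPM in the ovary, and was called higher than the mean and the ovary but not than the pituitary. 7 members did not reach 1 RPM in at least 2 libraries and were not tested: GHRH (5.22 and 0.759 RPM in the hypothalamus), NPY (1.44 and 0.190), AGRP (1.44 and 0.0632), VIP (0.522 and 0.379), QRFP (0.588 and 0), NMU (0.784 and 0.126) and NPW (0.653 and 0.379). The arcuate peptides NPY and AGRP were thus near the detection limit in a tissue known for them. The difference of POMC from the mean was -3.75 without the estrous and -1.07 without the anestrous hypothalamus library, and it was called in the first of these alone among the refits without 1 library (adjusted p from 0.063 to 0.23 in the others). PENK lost its call without either hypothalamus library or the estrous pituitary one (adjusted p = 0.12, 0.14 and 0.068), and GALP was no longer lower than both without any 1 of the hypothalamus or pituitary libraries.

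**Figure D2:**
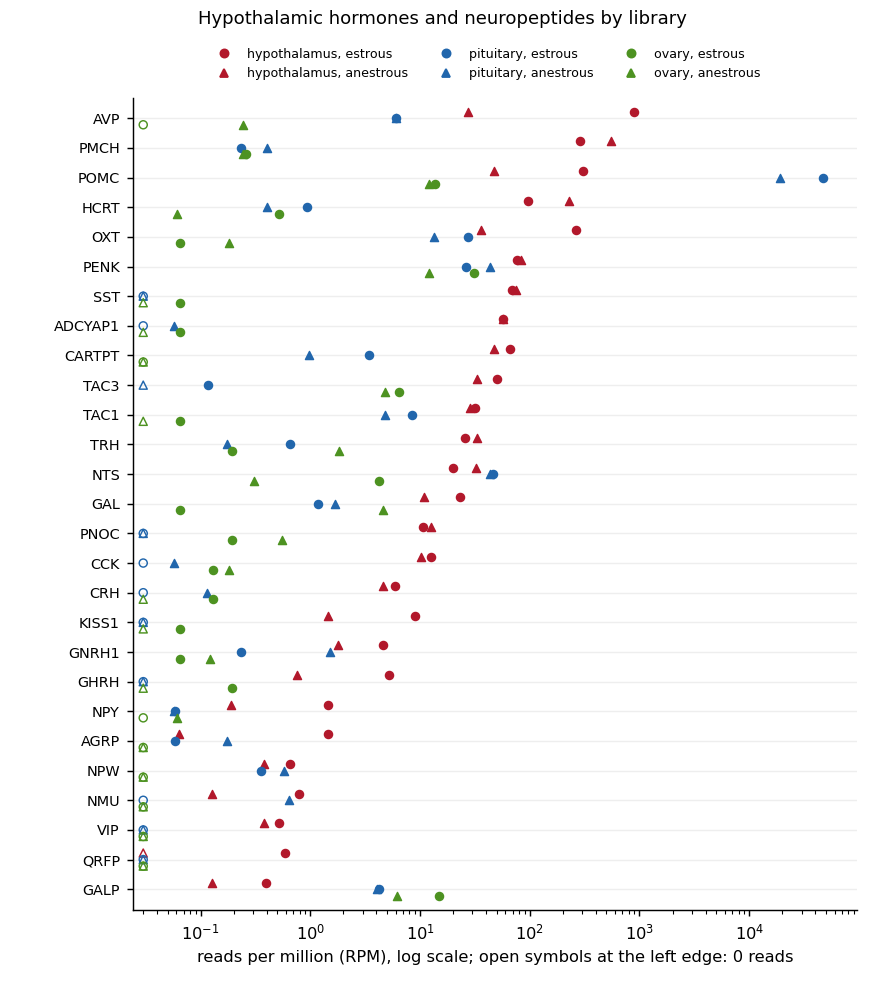
Level in RPM of each hypothalamic hormone or neuropeptide in each of the 6 libraries, on a log axis, with tissues by colour, states by symbol and open symbols at the left edge for 0 reads. The red hypothalamus symbols lie to the right of all others for most genes, from PMCH at 289 and 546 RPM to KISS1 at 9.08 and 1.45 RPM, while POMC lies furthest right in the pituitary and GALP in the ovary.

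The machinery that cuts and packs peptides was shared with the pituitary. Of 15 listed genes 11 were found and tested, 7 were higher than the mean of the others and 0 lower, but only CPE and CADPS2 were higher than both tissues. Carboxypeptidase E (CPE), which trims prohormones, had 1112 and 948 RPM in the hypothalamus, 469.7 and 386 RPM in the pituitary and 18.3 and 12.2 RPM in the ovary, a difference of 3.64 ± 0.23 (adjusted p = 0.00015). Prohormone convertase 2 (PCSK2) had 88.8 and 112 RPM in the hypothalamus, 75.1 and 57.5 RPM in the pituitary and 0.129 and 0.122 RPM in the ovary, far above the ovary and close to the pituitary. Chromogranin B (CHGB), a core protein of secretory granules, ran the other way against the pituitary, with 516 and 604 RPM in the hypothalamus, 18775 and 31112 RPM in the pituitary and 14 and 27.3 RPM in the ovary. The hypothalamus was 44.6-fold below the pituitary and 27.1-fold above the ovary, so its mean difference of -0.34 was not called. Against the ovary 10 of the 11 genes were higher, and against the pituitary 2 were higher and 3 lower. Without the estrous hypothalamus library 4 genes were higher than the mean, and CADPS2 missed the threshold without either (adjusted p = 0.078 and 0.068). None was higher than both without that library or without either pituitary library, and 1 was without the anestrous hypothalamus library.

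Among receptors for these peptides, 26 of 30 were found and 21 tested. Of these, 9 were higher than the mean of the others and 3 lower, and 7 were higher than both tissues. Over all tested genes these shares were 21.3%, 12% and 13.7%. The neurotensin receptor NTSR2, known from astrocytes, had 14.8 and 13.4 RPM in the hypothalamus, 0 and 0.0575 RPM in the pituitary and 0.0646 and 0.304 RPM in the ovary, a difference of 3.78 ± 0.18 (adjusted p = 7.6e-05). Orexin receptor 2 (HCRTR2) had 4.57 and 4.87 RPM in the hypothalamus, 0 and 0.115 RPM in the pituitary and no read in the ovary. The Y5 receptor for neuropeptide Y (NPY5R) had 12.3 and 13.9 RPM in the hypothalamus, 1.29 and 2.24 RPM in the pituitary and 0.646 and 0.243 RPM in the ovary. These receptors were low in absolute reads but lay above the other tissues in both hypothalamus libraries, beside 30.6% of all tested genes. NTSR2 and HCRTR2 passed the low-level filter through the hypothalamus libraries alone, so their direction and part of these counts follow from the filter. The 3 lower members were the pituitary's own receptors for hypothalamic signals. The receptor for growth hormone-releasing hormone (GHRHR) had 0.0653 and 0.0632 RPM in the hypothalamus and 87.2 and 94.4 RPM in the pituitary, the V1b vasopressin receptor of corticotrophs (AVPR1B) had no read against 99.1 and 22.9 RPM, and the GnRH receptor (GNRHR) had 0.0653 and 0.0632 RPM against 26.7 and 10.9 RPM. None of these 3 reached 1 RPM in the hypothalamus, so they passed the low-level filter through other libraries and their direction followed from it. AVPR1B (adjusted p = 0.069 and 0.074) and GNRHR (adjusted p = 0.051 and 0.055) lost their calls without the estrous or the anestrous hypothalamus library, which left 1 lower member in each refit.

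Of 37 listed transcription factors that pattern or mark the hypothalamus, 31 were found and 27 tested. 16 were higher than the mean of the others and 2 lower, and 15 were higher than both tissues and 0 lower, with a median difference of 1.28. LHX1, HMX3 and SIM1 were among those that passed the low-level filter through the hypothalamus libraries alone, so these counts follow in part from it. LHX1, a factor of the suprachiasmatic clock neurons, had 14.7 and 15.3 RPM in the hypothalamus, no read in the pituitary and 0.0646 and 0 RPM in the ovary, a difference of 3.98 ± 0.17 (adjusted p = 5.1e-05). The thyroid transcription factor NKX2-1, which specifies the ventral hypothalamus, had 42.2 and 35.9 RPM in the hypothalamus, 13.8 and 8.17 RPM in the pituitary and 0.0646 and 0 RPM in the ovary, a difference of 3.53 ± 0.24 (adjusted p = 0.0002). POU3F2, needed for the vasopressin and oxytocin neurons, had 10.8 and 9.36 RPM in the hypothalamus, 0.0588 and 0.115 RPM in the pituitary and 0 and 0 RPM in the ovary. HMX3 was read only in the hypothalamus, at 5.94 and 5.76 RPM (91 and 91 reads), which is at least 67.1-fold above the pituitary and 62.2-fold above the ovary when each is set at 3 reads over its 2 libraries. SIM1 (1.83 and 1.26 RPM), BARHL1 (2.22 and 2.21) and POU3F4 (1.5 and 1.01) also had no read in the 4 other libraries. OTP, which works with SIM1 in the paraventricular nucleus, had 6.46 and 5.57 RPM in the hypothalamus, 0.353 and 0 RPM in the pituitary and 0.258 and 0 RPM in the ovary. The others higher than both were ARNT2, DLX1, DLX2, FEZF1, LHX5, NKX2-2 and SOX14, with differences from 1.28 for SOX14 to 3.11 for DLX1. DLX2 lost its call against the mean without the estrous or the anestrous hypothalamus library (adjusted p = 0.094 and 0.054), and 1 listed factor was lower than the mean without the anestrous one.

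Several factors known from the developing hypothalamus were higher elsewhere. SIX6, an eye and hypothalamic factor, had 2.09 and 0.696 RPM in the hypothalamus and 88.1 and 80.0 RPM in the pituitary, 60.3-fold higher there. RAX, a marker of tanycytes, had 0.131 and 0 RPM in the hypothalamus and 10.8 and 6.33 RPM in the pituitary. Both SIX6 and RAX thus separated the pituitary from the other tissues rather than the hypothalamus. LHX6 was highest in the ovary, at 20.5 and 19.1 RPM against 4.83 and 6.13 RPM in the hypothalamus, and LHX9 overlapped, at 16 and 4.02 RPM in the ovary against 0.784 and 4.93 RPM in the hypothalamus. The members FEZF2, ISL1, LHX2, LHX8, OTX2 and TBX3 were not called, with ISL1 at 6.99 and 3.16 RPM in the hypothalamus and 7.11 and 7.88 RPM in the pituitary. RAX missed the threshold without the anestrous hypothalamus library (adjusted p = 0.054).

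**Figure D3:**
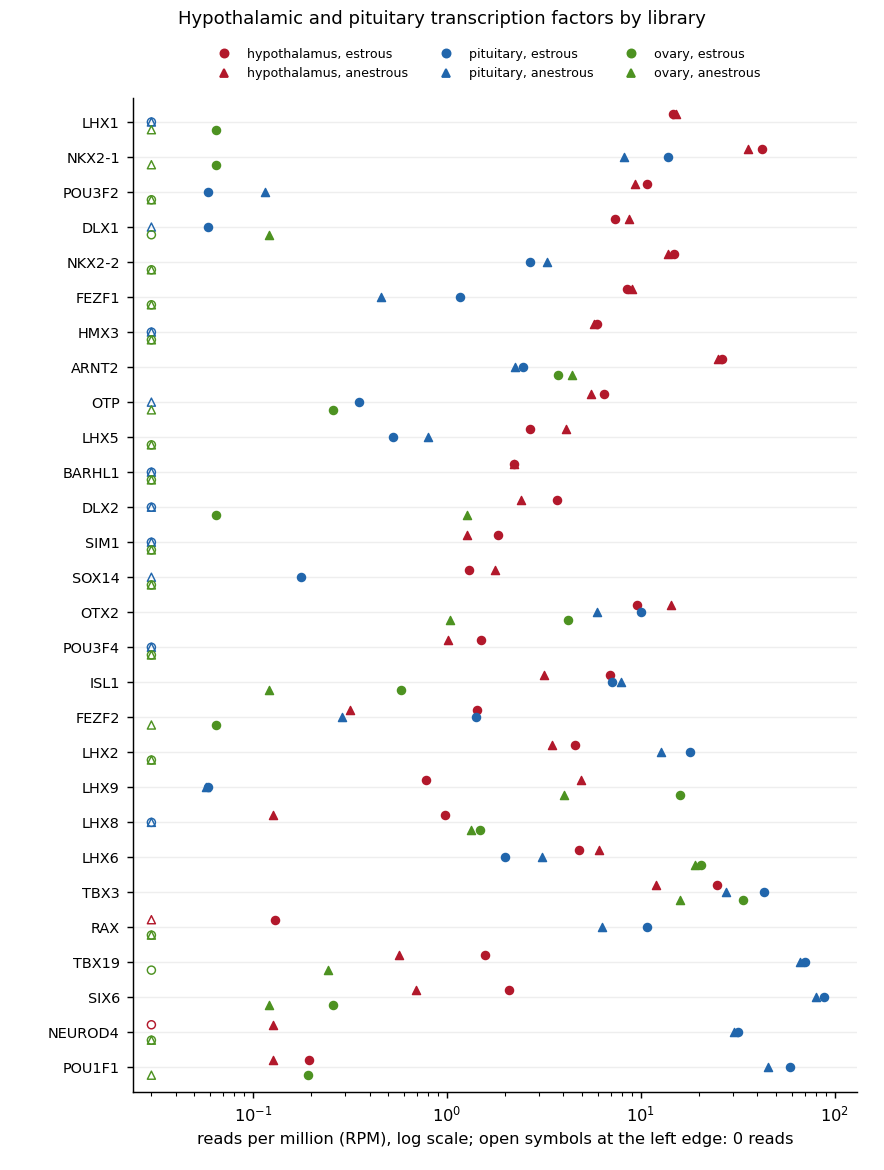
Level in RPM of tested hypothalamic and pituitary transcription factors named here in each library, on a log axis, ordered by the difference of the hypothalamus from the mean of the other tissues, with open symbols at the left edge for 0 reads. Factors from LHX1 to POU3F4 are mostly furthest right in the hypothalamus, while POU1F1, NEUROD4, SIX6 and TBX19 at the bottom are furthest right in the pituitary.

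The HOX genes, which set position along the trunk and hindbrain and are mostly silent in the forebrain, were almost absent from the hypothalamus apart from 1 member. Of 27 HOX genes found, the 26 other than HOXD1 had 5 and 1 reads in all in the hypothalamus libraries, 4 and 3 in the pituitary, but 2030 and 697 in the ovary. HOXD1 itself had 3.79 and 3.42 RPM in the hypothalamus, 0 and 0 RPM in the pituitary and 0.387 and 1.4 RPM in the ovary, which is 58 and 54 reads in the hypothalamus. It was higher than both other tissues, with a difference from their mean of 1.77 ± 0.26 (adjusted p = 0.0027). Of the 10 members tested, HOXD1 was the only one called higher than the mean and 6 were lower, all of them read in the ovary. The tested members other than HOXD1 passed the low-level filter through the ovary libraries alone, so their direction followed from the filter. Among these were HOXD9 (28.2 and 7.6 RPM in the ovary), HOXC6 (29.2 and 6.39) and HOXD8 (17.4 and 6.33). The count of lower members depended on single libraries and was 1 without either hypothalamus library, 3 without the estrous pituitary one and 2 without the anestrous one. HOXD9 and HOXC6 lost their calls in all 4 of these refits (adjusted p from 0.055 to 0.15) and HOXD8 in the first 2 (adjusted p = 0.084 and 0.089). HOXD1 was no longer higher than both without either hypothalamus library or the estrous ovary one.

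Neuronal genes were higher throughout. All 23 tested genes of neuronal structure and splicing were higher than the mean of the others and 15 were higher than both tissues, with a median difference of 4.11. STMN2, a microtubule regulator of growing axons, had 1135 and 1429 RPM in the hypothalamus, 63.0 and 41.3 RPM in the pituitary and 2.71 and 11.1 RPM in the ovary, a difference of 6.09 ± 0.48 (adjusted p = 0.00032). The neurofilament light chain NEFL had 1011 and 1174 RPM in the hypothalamus, 212 and 148 RPM in the pituitary and 0.969 and 0.730 RPM in the ovary, a difference of 5.91 ± 0.22 (adjusted p = 4e-05). GAP43, a growth cone protein, had 333 and 430.2 RPM in the hypothalamus, 19.5 and 35.1 RPM in the pituitary and 1.87 and 1.46 RPM in the ovary. These levels were also above 0 in the pituitary, at 63.0 and 41.3, 212 and 148 and 19.5 and 35.1 RPM, and over the list the median difference was 2.48 from the pituitary and 5.38 from the ovary. TUBB3, the neuron-specific tubulin, had 703 and 850.5 RPM in the hypothalamus, 22.5 and 33.8 RPM in the pituitary and 1.36 and 58.2 RPM in the ovary, and its ovary libraries differed most of the 3 pairs. The 2 members with the smallest differences were CNTNAP2 (1.44) and THY1 (1.44), and THY1 had 616 and 353 RPM in the ovary. TUBB3 missed the threshold without the estrous or the anestrous hypothalamus library (adjusted p = 0.089 and 0.1), and THY1 without either of these, the anestrous pituitary or the anestrous ovary one (adjusted p from 0.074 to 0.27).

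At the synapse, 20 of 21 tested genes of vesicle release were higher than the mean of the others and 16 higher than both tissues. Synaptotagmin 1 (SYT1), the calcium sensor for release, had 652 and 923 RPM in the hypothalamus, 52.3 and 58.1 RPM in the pituitary and 0.839 and 0.669 RPM in the ovary, a difference of 6.29 ± 0.21 (adjusted p = 3.6e-05). SV2A, a vesicle glycoprotein, had 418 and 618 RPM in the hypothalamus, 42.2 and 49.2 RPM in the pituitary and 0.387 and 0.426 RPM in the ovary. SNAP25, a protein of the fusion complex, was shared in part with the pituitary, with 1187 and 1625 RPM in the hypothalamus, 429.6 and 363 RPM in the pituitary and 0.710 and 1.34 RPM in the ovary. STX1A was the member not called, at 29.1 and 37.0 RPM in the hypothalamus and 34.7 and 25.8 RPM in the pituitary. Over the list the median difference was 1.95 from the pituitary, whose cells secrete by the same calcium-driven fusion, and 4.69 from the ovary.

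Both fast transmitter systems were represented. For GABA and glycine, 20 of 21 tested genes were higher than the mean and 19 higher than both tissues, with a median difference of 4.15. GAD1, which makes GABA, had 201 and 249 RPM in the hypothalamus, 1.53 and 0.460 RPM in the pituitary and 0.129 and 0.122 RPM in the ovary, a difference of 7.26 ± 0.27 (adjusted p = 4e-05). The vesicular GABA transporter SLC32A1 had 55.6 and 93 RPM in the hypothalamus, 0.118 and 0 RPM in the pituitary and no read in the ovary. GABRD, an extrasynaptic receptor subunit, was the only tested member not called, with 1.44 and 8.85 RPM in the hypothalamus, 2.0 and 5.46 RPM in the pituitary and 1.23 and 0.669 RPM in the ovary. For glutamate, 22 of 26 tested genes were higher than the mean and 19 higher than both, with a median of 2.78. The vesicular glutamate transporter SLC17A6, the form of subcortical neurons, had 96.4 and 135 RPM in the hypothalamus, 2.82 and 4.31 RPM in the pituitary and 0.0646 and 0 RPM in the ovary, a difference of 5.74 ± 0.24 (adjusted p = 4.9e-05). Its cortical counterpart SLC17A7 had 1.31 and 1.14 RPM in the hypothalamus, 1.12 and 1.67 RPM in the pituitary and 0.904 and 1.46 RPM in the ovary and was not called, so the 2 transporters differed sharply in this tissue. The astrocyte transporters SLC1A3 and SLC1A2 had 449 and 473 RPM and 85.4 and 76.2 RPM in the hypothalamus, against 3.06 and 2.7 RPM and 0.235 and 0.230 RPM in the pituitary. Besides SLC17A7 the members not called included GRIA3 and HOMER1.

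Of the monoamine, acetylcholine and histamine genes, 26 of 32 were found and only 17 passed the low-level filter; 13 were higher than the mean, 2 lower and 9 higher than both. Acetylcholinesterase (ACHE) had 290.3 and 368 RPM in the hypothalamus, 8.76 and 7.48 RPM in the pituitary and 0.452 and 7.54 RPM in the ovary, a difference of 5.86 ± 0.66 (adjusted p = 0.0011). Histidine decarboxylase (HDC), which makes histamine in the tuberomammillary neurons, had 76.9 and 56.3 RPM in the hypothalamus, 0.0588 and 0.0575 RPM in the pituitary and 83.0 and 9.19 RPM in the ovary, so the estrous ovary overlapped with the hypothalamus. The serotonin receptor HTR2C, an appetite-related receptor, had 18.2 and 15.8 RPM in the hypothalamus, 0.235 and 0.0575 RPM in the pituitary and 0 and 0 RPM in the ovary. The 2 lower members were the dopamine receptor DRD2, which mediates the inhibition of prolactin in the pituitary, and the serotonin transporter SLC6A4. DRD2 had 17.8 and 16.9 RPM in the hypothalamus, 510.2 and 568 RPM in the pituitary and 2.91 and 2.74 RPM in the ovary, so it lay between the tissues, lower than the pituitary and higher than the ovary. SLC6A4 had 0.196 and 0.949 RPM in the hypothalamus, 0.294 and 0.920 RPM in the pituitary and 20.3 and 22.9 RPM in the ovary. The dopamine transporter SLC6A3, named after its values were seen, had 18.7 and 0.759 RPM in the hypothalamus and was not tested. Among voltage-gated channels, 21 of 24 tested genes were higher than the mean, 17 higher than both and none lower, with a median of 3.07. The sodium channel SCN2A had 137 and 199 RPM in the hypothalamus, 21.4 and 15.2 RPM in the pituitary and 1.61 and 1.1 RPM in the ovary, and the potassium channel subunits KCNC1 and KCNJ9 had 22.3 and 39.3 RPM and 67.1 and 86.3 RPM in the hypothalamus. KCNJ6 was among those not called, with levels in the pituitary near those of the hypothalamus. HDC lost its call without the estrous or the anestrous hypothalamus library (adjusted p = 0.1 and 0.085), and 5 members of its list were higher than both without the anestrous one.

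Myelin gave the largest differences of any list. All 17 tested genes of myelin and oligodendrocytes were higher than the mean, 15 were higher than both tissues, and the median was 5.06. TF had 2877 and 1926 RPM in the hypothalamus, 6.88 and 2.65 RPM in the pituitary and 4.58 and 2.37 RPM in the ovary, a difference of 8.93 ± 0.39 (adjusted p = 6.2e-05). OPALIN had 1404 and 891 RPM in the hypothalamus, 2.0 and 2.01 RPM in the pituitary and 0.839 and 0.608 RPM in the ovary, a difference of 8.94 ± 0.24 (adjusted p = 2.6e-05). MAG had 352 and 265 RPM in the hypothalamus and at most 12 reads in any other library. In each case the estrous library was the higher of the pair, and neither overlapped with the other tissues. Summed over the list the levels were 24149 and 17410 RPM in the hypothalamus, 311 and 262 RPM in the pituitary and 407 and 602 RPM in the ovary. The smallest differences were those of SOX10 (2.03), with 6.01 and 1.39 RPM, and CNDP1 (1.27). Of 7 tested precursor genes 5 were higher than the mean and 3 higher than both, and the proteoglycans VCAN and CSPG4 were not called, with 268 and 382 RPM and 43.6 and 97.6 RPM in the ovary. SOX10 stood at 1.26 without the estrous hypothalamus library.

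Astrocyte genes were higher for 10 of 12 tested, 9 of them against both tissues, with a median of 4.28. The water channel AQP4 had 2126 and 1863 RPM in the hypothalamus, 26.6 and 30.7 RPM in the pituitary and 0.969 and 0.791 RPM in the ovary, a difference of 8.06 ± 0.18 (adjusted p = 2.5e-05). Aldolase C (ALDOC) had 1952 and 2204 RPM in the hypothalamus, 130.2 and 105 RPM in the pituitary and 29.5 and 31.8 RPM in the ovary, a difference of 5.08 ± 0.19 (adjusted p = 4e-05). Angiotensinogen (AGT), which brain astrocytes make, had 550.1 and 531 RPM in the hypothalamus, 37.1 and 12.9 RPM in the pituitary and 31.7 and 19.6 RPM in the ovary. FGFR3 had 31.4 and 31.5 RPM in the hypothalamus and below 1 RPM elsewhere. Both hypothalamus libraries lay above the 4 others for these 4 genes, beside 30.6% of all tested genes. PLA2G7 and CHRDL1 were not called, with 177 and 122 RPM and 508 and 142 RPM in the ovary. Proteoglycans and links of the brain matrix followed, with 8 of 11 tested genes higher than the mean and 6 higher than both. HAPLN2, a link protein of the nodes of Ranvier, had 96.4 and 72.1 RPM in the hypothalamus and at most 2 reads in any other library.

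Microglia and vessels were mixed. Of 13 tested microglia and macrophage genes 6 were higher than the mean and 1 was lower, beside 21.3% and 12% of all tested genes. Against both tissues 4 were higher, beside 13.7%. These 4 were P2RY12, CX3CR1, P2RY13 and SALL1, genes that mark resident microglia more than other macrophages. P2RY12, a nucleotide receptor, had 93.6 and 51.0 RPM in the hypothalamus, 2.29 and 1.5 RPM in the pituitary and 8.91 and 7.73 RPM in the ovary, a difference of 3.76 ± 0.29 (adjusted p = 0.00029). The fractalkine receptor CX3CR1 had 192 and 119 RPM in the hypothalamus, 7.29 and 4.66 RPM in the pituitary and 11.1 and 66.4 RPM in the ovary, with the anestrous ovary closest. The lysosomal macrophage marker CD68 was lower, with 24.2 and 19.9 RPM in the hypothalamus and 242 and 486 RPM in the ovary. For endothelium of the blood-brain barrier 7 of 9 tested genes were higher than the mean and 4 higher than both. Of 10 general endothelial genes 0 were higher and 3 lower, beside 21.3% and 12% of all tested genes. The barrier lipid transporter MFSD2A had 29.4 and 36.9 RPM in the hypothalamus, 2.23 and 2.93 RPM in the pituitary and 2.91 and 5.23 RPM in the ovary and the organic anion transporter SLCO1A2 had 92.2 and 57.4 RPM in the hypothalamus, 0.235 and 0.173 RPM in the pituitary and 1.03 and 0.365 RPM in the ovary. The general endothelial adhesion molecule PECAM1 went the other way, with 39.4 and 43.1 RPM in the hypothalamus, 115 and 131 RPM in the pituitary and 278 and 347 RPM in the ovary and a difference of -2.22 ± 0.19 (adjusted p = 0.00041). Smooth muscle and pericyte genes were lower for 6 of 12 tested and higher for none, with actin ACTA2 at 26.8 and 48.5 RPM in the hypothalamus and 3035 and 1908 RPM in the ovary. Without either hypothalamus library CX3CR1 (adjusted p = 0.086 and 0.06) and CD68 (adjusted p = 0.066 and 0.1) were not called, and without the estrous one 3 microglial genes were higher than the mean. The 4 microglial genes higher than both became 2 without any 1 of the hypothalamus or pituitary libraries. The barrier count of 7 became 3 without the estrous and 4 without the anestrous hypothalamus library, with 2 higher than both in each case, and the 3 lower general endothelial genes became 1 without either of these or the anestrous pituitary library.

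The cells that line the third ventricle were not marked as a group. Of 10 tested genes of tanycytes, ependyma and cilia 2 were higher than the mean and 2 lower. Over all tested genes 21.3% were higher and 12% lower, so the higher count was near that share. FOXJ1, the factor for motile cilia, had 25.2 and 11.9 RPM in the hypothalamus, 2.88 and 1.38 RPM in the pituitary and 0.517 and 0 RPM in the ovary, a difference of 3.25 ± 0.38 (adjusted p = 0.0012), and the ciliary gene SPAG17 had 6.99 and 5.19 RPM in the hypothalamus. Vimentin (VIM) was lower than both tissues, with 306 and 216 RPM in the hypothalamus, 1125 and 567 RPM in the pituitary and 4645 and 5869.9 RPM in the ovary, and RAX was described above. Transthyretin (TTR), the carrier made by choroid plexus, had 150.1 and 54.1 RPM in the hypothalamus, 0.0588 and 0.115 RPM in the pituitary and 0.129 and 0.122 RPM in the ovary, so the estrous hypothalamus held more of it. Of 6 tested choroid plexus genes 3 were higher than the mean (TTR, KCNJ13 and KL), beside 21.3% of all tested genes. Against both tissues 2 of these 3 were higher, and the whole list summed to 186 and 83.8 RPM in the hypothalamus. VIM was not lower than both without either hypothalamus library or the estrous pituitary one, 1 member of that list was lower than the mean without the anestrous hypothalamus library, and 1 was higher than both without the anestrous pituitary library. KL missed the threshold without the estrous hypothalamus library (adjusted p = 0.051), 5 choroid plexus genes were higher than the mean without the estrous ovary library, and 1 was higher than both without the anestrous pituitary library.

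Genes known from the neighbouring thalamus and from cortex were read as well. Of 13 tested, 5 were higher than the mean (among them CALB2, GBX2, LEF1 and TCF7L2), all but TCF7L2 also higher than both tissues, and ROR1 was lower. Over all tested genes 21.3% were higher than the mean and 13.7% higher than both. Calretinin (CALB2), found in the midline thalamus and in the hypothalamus too, had 179 and 398 RPM in the hypothalamus, 2.82 and 4.54 RPM in the pituitary and 0.129 and 0.0608 RPM in the ovary, a difference of 6.9 ± 0.35 (adjusted p = 8.3e-05). TCF7L2, a thalamic factor, had 13.8 and 48.6 RPM in the hypothalamus, and RGS16 had 1.44 and 42.2 RPM. The anestrous hypothalamus was the higher of the pair in all 3 genes. The list summed to 278 RPM in the estrous and 576 RPM in the anestrous hypothalamus. CALB2 made up most of both sums, and these 3 genes most of the difference between them, so the sums show no shift across the list. The cortical factors EMX1 and TBR1 had 0.131 and 0.0632 RPM and 1.37 and 0.822 RPM. The part of such neighbouring tissue in the results was not tested. Leaving out the anestrous hypothalamus library lowered the differences of TCF7L2 to 1.4 and of GBX2 to 1.13, and left 1 of the 4 genes higher than both. That count was 2 without either pituitary library. ROR1 was not lower than both without any 1 of the hypothalamus or pituitary libraries.

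Genes lower in the hypothalamus than in both other tissues included many of connective tissue and of the ribosome. The 10 named genes with the most negative difference that held against both were the retinoic acid enzyme ALDH1A2 (-5.89), the calcium-binding protein RCN3 (-5.45), sphingosine kinase SPHK1 (-5.39), collagen COL9A2 (-4.63), the Wnt receptor ROR2 (-4.32), the metalloproteinase inhibitor TIMP1 (-5.6), UNC5CL (-4.55), FNDC1 (-4.77), the sulfate donor enzyme PAPSS2 (-4.16) and the adhesion protein TES (-4.12). RCN3 had 19.3 and 11.1 RPM in the hypothalamus, 730.1 and 848 RPM in the pituitary and 591 and 603 RPM in the ovary, a difference of -5.45 ± 0.25 (adjusted p = 7.4e-05). ALDH1A2 had 2.55 and 1.77 RPM in the hypothalamus, 147 and 198 RPM in the pituitary and 435 and 91.6 RPM in the ovary, a difference of -5.89 ± 0.59 (adjusted p = 0.00072). For both genes the hypothalamus libraries lay far below each of the 4 others. Of 18 tested genes of fibrillar and basement membrane matrix, 15 were lower than the mean, 12 lower than both and only SPARC higher than the mean. COL3A1, a fibrillar collagen, had 34.5 and 20.1 RPM in the hypothalamus, 473 and 244 RPM in the pituitary and 7663 and 9856 RPM in the ovary, a difference of -5.97 ± 0.35 (adjusted p = 0.00013). SPARC, a matrix protein that glia also make, had 711 and 546 RPM in the hypothalamus, 81.6 and 66.7 RPM in the pituitary and 835 and 977 RPM in the ovary. TIMP1 missed the threshold without the estrous or the anestrous hypothalamus library (adjusted p = 0.054 and 0.07), and SPARC without the estrous one (adjusted p = 0.056). The 12 matrix genes lower than both became 6 and 4 without the estrous and the anestrous hypothalamus library and 5 without either pituitary library.

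Cytosolic ribosomal protein genes were lower as a block. Of 16 tested, 14 were lower than the mean of the others, 13 lower than both tissues and all 16 had both hypothalamus libraries below the 4 others, beside 19.8% of all tested genes. RPS6 had 329 and 299 RPM in the hypothalamus, 1080.1 and 1200.1 RPM in the pituitary and 1664 and 1169 RPM in the ovary, a difference of -2.0 ± 0.21 (adjusted p = 0.00086). For RPS6 the hypothalamus was 3.63-fold below the pituitary and 4.51-fold below the ovary. The 2 not called were RPL27 (-0.70) and 1 of 2 entries of RPLP2. Some of these genes have near-identical pseudogenes, so their reads could be split in the counting. Scaling by the trimmed mean of M values in place of the library total shifted the differences of all genes by a median of -0.13 from the mean of the others, -0.29 from the pituitary and 0.04 from the ovary. The count of 13 lower than both was 6 without the estrous and 3 without the anestrous hypothalamus library, and 7 and 4 without the estrous and the anestrous pituitary one. The called entry of RPLP2 missed the threshold without the anestrous hypothalamus library (adjusted p = 0.053).

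Antigen presentation, epithelium and cell division were lower too. Of 11 tested MHC class I and II genes 7 were lower than the mean, 3 lower than both and none higher. Over all tested genes 12% were lower than the mean and 4.7% lower than both. SLA-DRA, a class II chain, had 74.8 and 57.9 RPM in the hypothalamus, 228 and 249.7 RPM in the pituitary and 627 and 1769 RPM in the ovary, a difference of -2.91 ± 0.42 (adjusted p = 0.0025). All 8 tested epithelial genes were lower than the mean, through the pituitary, with EPCAM at 4.18 and 3.6 RPM in the hypothalamus and 509 and 410.0 RPM in the pituitary. Cell cycle genes were lower than the mean for 8 of 15 tested, but none was lower than both: 14 of 15 were lower than the ovary and 0 than the pituitary. The kinase CDK1 had 1.18 and 0.506 RPM in the hypothalamus, 2.53 and 1.67 RPM in the pituitary and 12.8 and 8.03 RPM in the ovary. Lymphocyte genes were lower than the mean for 4 of 11 tested and higher for 1, beside 12% and 21.3% of all tested genes. Against the ovary 7 were lower, and against the pituitary 2 were lower and 2 higher. The 2 lower than the pituitary were CD79A and CD79B, at 15.9 and 24.9 RPM and 16 and 24.3 RPM there. Of 3 tested red blood cell genes none was called, with beta-globin HBB at 22.5 and 16.6 RPM in the hypothalamus, 53.2 and 65.2 RPM in the pituitary and 51.7 and 15.5 RPM in the ovary. Without the estrous and the anestrous hypothalamus library the lower genes numbered 4 and 2 for MHC and 4 and 0 for the cell cycle, and without the estrous pituitary one 5 for the cell cycle. Without the anestrous hypothalamus library 5 epithelial and 2 lymphocyte genes were lower. The 3 MHC genes lower than both became 1 without the anestrous pituitary library and 0 without the other pituitary library or either hypothalamus one. CDK1 and CD79A lost their calls without the anestrous hypothalamus one (adjusted p = 0.058 and 0.062).

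**Figure D4:**
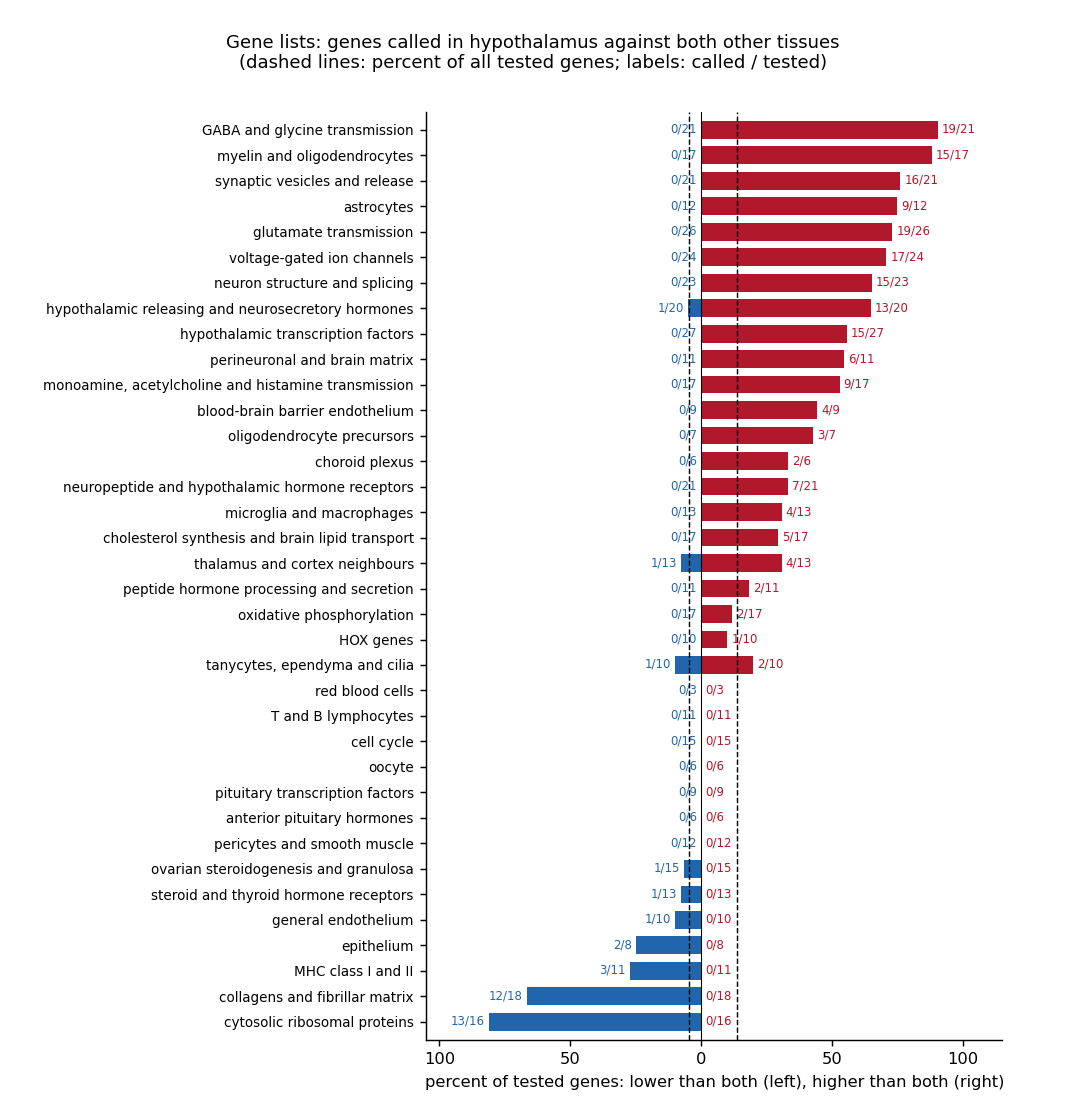
Percent of the tested genes of each list called higher (red, right) or lower (blue, left) in the hypothalamus than in pituitary and in ovary, with called and tested counts printed at the bars and dashed lines at 13.7% higher and 4.7% lower for all tested genes. GABA and glycine transmission (19 of 21) and myelin (15 of 17) have the longest red bars, and ribosomal proteins (13 of 16) and collagens (12 of 18) the longest blue bars.

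The other tissues' own genes were low in the hypothalamus. All 6 tested anterior pituitary hormone genes were lower than the mean of the others. Prolactin (PRL) had 96.6 and 101 RPM in the hypothalamus, 125598 and 154283 RPM in the pituitary and 54.4 and 53.1 RPM in the ovary. GH1 had 42.8 and 40.9 RPM in the hypothalamus and 30.3 and 28.4 RPM in the ovary, and the alpha subunit CGA had 11.5 and 9.68 RPM and 5.23 and 5.66 RPM. In percent of the pituitary level, GH1, PRL, CGA, FSHB and TSHB stood at 0.063%, 0.071%, 0.078%, 0.058% and 0.093% in the hypothalamus, and at 0.044%, 0.038%, 0.040%, 0.053% and 0.074% in the ovary. POMC stood at 0.53% in the hypothalamus and 0.039% in the ovary. The same low ratios ran in other directions, where GFAP in the ovary stood at 0.059% of its hypothalamic level, so small shares of very abundant transcripts were read in all 3 tissues and their source was not tested. Of 15 tested genes of ovarian steroidogenesis and granulosa cells 12 were lower than the mean of the others and none higher, with CYP17A1, which makes androgens, at 1.83 and 0.885 RPM in the hypothalamus, 0.999 and 0.978 RPM in the pituitary and 4178 and 256 RPM in the ovary. Of 6 tested oocyte genes 2 were lower, ZP3 and ZP4, and GDF9 was read evenly at 38.7 and 37.7 RPM in the hypothalamus and 42.7 and 24.3 RPM in the ovary. The whole oocyte list summed to 41.7 and 40.5 RPM in the hypothalamus, most of it GDF9, and 27.5 and 41.9 RPM in the pituitary. Whether GDF9 shares reads with an overlapping gene was not tested. Without the anestrous hypothalamus library 7 steroidogenic genes were lower. CYP17A1 (adjusted p from 0.057 to 0.13), ZP3 (0.052 to 0.12) and ZP4 (0.056 to 0.12) lost their calls without any 1 of the hypothalamus or pituitary libraries, so that no oocyte gene was lower, and without the anestrous ovary library 4 were.

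Receptors for steroid and thyroid hormones, through which the ovary and thyroid feed back on the brain, did not set the hypothalamus above both tissues. Of 13 tested entries 6 were higher than the mean, 2 lower, 0 higher than both and 1 lower than both. Over all tested genes these shares were 21.3%, 12%, 13.7% and 4.7%. The progesterone receptor PGR, which estradiol induces in the hypothalamus, had 0.914 and 0.759 RPM in the hypothalamus, 25.7 and 12.5 RPM in the pituitary and 7.1 and 2.68 RPM in the ovary, a difference of -2.47 ± 0.41 (adjusted p = 0.0044). The main entry of the estrogen receptor ESR1 had 14.4 and 10.6 RPM in the hypothalamus, 60.4 and 71.1 RPM in the pituitary and 126 and 23.6 RPM in the ovary, a difference of -2.19 ± 0.62 (adjusted p = 0.03), with the anestrous ovary nearest. NR2F1, an orphan receptor, had 82.9 and 95.9 RPM in the hypothalamus, 6.0 and 9.2 RPM in the pituitary and 169.6 and 62.2 RPM in the ovary and was called against the mean and the pituitary but overlapped with the ovary. Whole-organ levels of ESR1 and PGR were thus lower in the hypothalamus than in each of the 4 other libraries. These counts rested on single libraries: 0 entries were higher than the mean without either hypothalamus library and 1 without the anestrous pituitary library, and the 2 lower became 1 without the estrous hypothalamus or either pituitary library and 0 without the anestrous hypothalamus library. ESR1 and NR2F1 lost their calls without any 1 of the hypothalamus or pituitary libraries (adjusted p from 0.08 to 0.19 and from 0.052 to 0.16), and PGR without the anestrous hypothalamus one (adjusted p = 0.057). The entry lower than both was not so without either hypothalamus or the estrous ovary library, and 2 were without the anestrous ovary one.

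Genes of cholesterol synthesis and brain lipid transport were higher for 11 of 17 tested and lower for none, and 5 were higher than both tissues. CYP46A1, the neuronal enzyme that turns cholesterol into 24-hydroxycholesterol, had 132 and 162 RPM in the hypothalamus, 14.8 and 8.4 RPM in the pituitary and 0.581 and 0.548 RPM in the ovary, a difference of 5.07 ± 0.26 (adjusted p = 8.3e-05). The fatty acid binding protein FABP7 had 178 and 117 RPM in the hypothalamus, 0.529 and 0.575 RPM in the pituitary and 4.91 and 0.548 RPM in the ovary, a difference of 6.07 ± 0.53 (adjusted p = 0.00043). HMGCS1, an early enzyme of synthesis, had 689 and 708 RPM in the hypothalamus, 70.6 and 46.1 RPM in the pituitary and 291 and 56.6 RPM in the ovary, so the estrous ovary came nearest. The other 2 higher than both were SQLE and CYP51A1, later steps of the same route. Oxidative phosphorylation moved little, with 3 of 17 tested genes higher (NDUFA4, COX5A and CYCS), none lower and a median of 0.54. That is 17.6%, beside 21.3% of all tested genes. Both hypothalamus libraries lay above the 4 others for 12 of the 17, beside 30.6% of all tested genes. The complex IV-associated subunit NDUFA4 had 282 and 316 RPM in the hypothalamus, 61.1 and 39.2 RPM in the pituitary and 147 and 126 RPM in the ovary, a difference of 1.86 ± 0.24 (adjusted p = 0.0016). The 11 higher members became 2 without either hypothalamus library, 5 without the estrous and 6 without the anestrous pituitary one. Those higher than both ranged from 2 without either hypothalamus or the anestrous pituitary library, and 3 without the estrous pituitary one, to 10 without the estrous ovary one. HMGCS1, SQLE and CYP51A1 lost their calls without either hypothalamus library (adjusted p from 0.056 to 0.09), as did COX5A (adjusted p = 0.064 and 0.12).

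In 16 gene families a paralog known from neurons was set beside one used in most tissues, and most neuronal members were higher. The member listed for aldolase, ALDOC, is also given above as an astrocyte gene. Of 16 neuronal members 13 were higher than both other tissues and 14 higher than the mean, and of 14 general members found 0 were higher than both, 1 higher than the mean and 1 lower. The splicing regulator PTBP2 had 10.4 and 12.1 RPM in the hypothalamus, 1.94 and 1.21 RPM in the pituitary and 2.2 and 1.64 RPM in the ovary, while its general counterpart PTBP1, which is switched off in neurons, was lower with 103 and 81.3 RPM in the hypothalamus, 244 and 229 RPM in the pituitary and 356 and 285 RPM in the ovary. The axonal kinesin KIF5A had 264 and 315 RPM in the hypothalamus, 4.17 and 4.03 RPM in the pituitary and 1.49 and 0.913 RPM in the ovary, and KIF5B, called against the mean by 1.03, had 302 and 266 RPM in the hypothalamus, 143 and 124 RPM in the pituitary and 107 and 193 RPM in the ovary. CPT1C and LDHB were the neuronal members not called. The families were listed from general knowledge of these genes. KIF5B lost its call without any 1 of the hypothalamus or pituitary libraries (adjusted p from 0.064 to 0.16) and fell to 0.82 without the estrous ovary one.

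Few genes were read in the hypothalamus alone. At 1 RPM or more in both of its libraries and with no read in the 4 others there were 24 genes, against 7 for the pituitary and 14 for the ovary by the same rule, and with at most 3 reads elsewhere there were 127, 33 and 64. POU3F3, a factor of forebrain neurons and named here after its values were seen, had 447 and 349 reads in the hypothalamus and none elsewhere, at least 294-fold above the pituitary and 273-fold above the ovary. MC4R, the melanocortin receptor that lowers food intake, had 52 and 72 reads and none elsewhere. The other tissues' absence of reads allows up to 3 reads over each pair of libraries, and this limit covers counting error only.

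Within each state the called genes kept their direction, which follows in large part from how they were called. All 1906 genes called higher than both had a positive difference in the estrous and in the anestrous libraries taken alone, and 1838 were at least 1 in both; all 654 lower genes were negative in both, with 627 at least 1 below. Both libraries entered the calls, so these counts describe the called genes and are no separate test. The median absolute difference between the 2 hypothalamus libraries was 0.20, against 0.66 between hypothalamus and pituitary and 0.84 between hypothalamus and ovary. Of the genes higher than both, 52 differed by at least 1 between the 2 hypothalamus libraries, beside 278 of all tested genes. AVP and KISS1 above were higher in the estrous library. ZIC1, a factor of the medial thalamus and septum and named after its values were seen, was higher in the anestrous one at 5.42 and 23.3 RPM, as was NTNG1, a thalamic axon protein, at 22.9 and 128 RPM. With 1 library a state, these differences cannot be told apart from differences in dissection. The difference of NTNG1 from the mean of the other tissues was 3.56, and 2.35 without the anestrous hypothalamus library.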

How the data were processed

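RNA-seq of 2 hypothalamus, 2 pituitary and 2 ovary libraries of sows was used. The deposited values are a normalized signal, in which the reads of a gene were divided by one factor for each library, set by the authors within each tissue. The submitters' processing notes name TopHat2 2.1.0; genome build, annotation and strandedness are not given in the sources used here. Overlapping and antisense genes may therefore share reads. Whole reads were recovered from all values within 0.01 read, and scaled to a library of 1000000 reads (RPM). Genes with at least 1 RPM in at least 2 libraries were tested with limma 3.58.1 in R 4.3.3 on log2(RPM + 1), with 3 tissues of 2 libraries and Benjamini-Hochberg adjustment. Fold changes of low genes are understated on this scale. Alternatives were other pseudocounts, filters, scaling, groupings and left-out libraries, and edgeR 4.0.16 and DESeq2 1.42.0 on the recovered reads. The limma fit against the mean was tried on simulated reads. There only the changed genes differed between tissues and the spread was set alike for all genes, unlike in these data. It called 56% of 2-fold changes and 100% of the 4-fold, 8-fold and 16-fold ones. Symbols came from the deposited tables for 12762 genes and from a gene name table for others, 14419 of 19465 in all; 208 symbols stood at several entries. Named were the 15 highest and 10 lowest genes called against both tissues, members of each list with the largest 5 and smallest 2 differences, and any hormone or transcription factor of the lists; other members and genes were chosen after their values were seen, and some genes that the rule names are not reported here. The tissues compared and the gene lists were chosen with earlier results of these data known. A permutation test of 2 against 4 libraries cannot reach 0.05 and was not made.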

Additional observations from a re-analysis of the deposited data

Results flagged for a closer look

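For 6 genes of the lists, the hypothalamus lay above the pituitary and the ovary in 1 state and below both in the other. None of them was called, each state has 1 library per tissue, and the difference between states was not tested. The values are the hypothalamus minus the mean of the other tissues on the log2(RPM + 1) scale, and the change is the anestrous minus the estrous one. Beta-2-microglobulin (B2M), the light chain of MHC class I, stood at -3.03 in the estrous and 1.25 in the anestrous libraries, a change of 4.28. The matrix glycoprotein tenascin C (TNC) went from 0.91 to -2.54, a change of -3.44, with 546 RPM in the anestrous ovary against 19.2 in the estrous one. The gastrin receptor CCKBR went from -0.79 to 0.92, a change of 1.71. The mitochondrial subunit NDUFB5 went from -0.43 to 0.39 (0.83), the lower of 2 entries of the peptide transporter TAP2 from -0.28 to 0.50 (0.78), and the glutamate transporter SLC17A7 from 0.20 to -0.26 (-0.46).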

How the results depend on the processing

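Of 169 named genes called against the mean, 82 were called in every alternative fit, 87 lost the call in at least 1 and none reversed. Leaving out a hypothalamus library cost 24 to 31 of these calls and a pituitary library 10 to 13. Treating the 4 pituitary and ovary libraries as 1 group, whose spread then holds the difference between these tissues, cost 65 and left 1619 genes higher and 506 lower than the mean. A required difference of 2 left 1332 higher and 519 lower than the mean and 783 higher and 147 lower than both, and the adjusted p alone gave 2541 lower than the mean. A pseudocount of 5 left 422 lower than both, and cost 26 calls of named genes. On recovered reads edgeR gave 1029 and DESeq2 1102 genes lower than both. The genes called against both were higher for 59.8% and 60.5% there, against 74.5% in limma. In limma with trimmed mean scaling this share was 65.9%, with 856 genes lower than both. The cause of these differences was not tested. edgeR did not call GAL, HOXC6, HOXD8, HOXD9, KIF5B, NEUROD4, POMC, RAX, TBX19, THY1, ZP3 and ZP4, and DESeq2 did not call HOXD8, HOXD9, KIF5B, RAX, SOX10, ZP3 and ZP4. Without 1 library, with or without the low-level filter applied again, the counts ran from 1721 to 3132 higher and 777 to 1943 lower than the mean, and from 841 to 2047 higher and 199 to 792 lower than both. The refits on the same genes were chosen after seeing the data. With state as a replicate block the counts were 2967, 1709, 1903 and 683, and no named call was lost; the deviations of libraries of the same state correlated at 0.21, 0.004 and 0.016 between tissues, so that the state number was not taken to pair them. List medians changed sign for neuropeptide receptors (-0.53 with a filter of 10 RPM, and -0.30 to 1.31 without 1 library), for tanycytes and cilia (-0.099 with that filter, and -0.22 to 0.31 without 1 library), for pituitary factors (-2.33 to 0.053 without 1 library), for oocyte genes (-1.98 to 0.19) and for HOX genes (-1.59 to 1.96, the highest without the anestrous ovary library, when few members passed the filter). Genes near 1 RPM rest on few reads, and their differences on this scale are understated.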

Other observations

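The following genes were chosen after their values were seen. The calcitonin receptor CALCR, which with its accessory proteins also binds amylin, had 1406 and 975 RPM in the hypothalamus, 82.1 and 42.9 RPM in the pituitary and 1.42 and 1.28 RPM in the ovary, a difference from the mean of the other tissues of 6.62 ± 0.31 (adjusted p = 7.6e-05) by limma. Amylin (IAPP), best known from pancreatic beta cells, had 47.0 and 34.7 RPM in the hypothalamus, 0 and 0.0575 RPM in the pituitary and 0 and 0 RPM in the ovary. The calcitonin and CGRP gene CALCA had 53.2 and 63.7 RPM in the hypothalamus, 0.176 and 0.0575 RPM in the pituitary and 0 and 0.183 RPM in the ovary. All 3 genes had both hypothalamus libraries above the 4 others, beside 30.6% of all tested genes. Of the accessory proteins that set what the receptor binds, RAMP3 had 179 and 187 RPM in the hypothalamus, 10.7 and 12 RPM in the pituitary and 3.36 and 1.52 RPM in the ovary and was higher than both tissues, RAMP1 was higher than the mean (2.0) but not than the pituitary (adjusted p = 0.37), and RAMP2 was not called (-0.15).

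Several genes known to be imprinted in mammals were shared with the pituitary or nearly limited to the hypothalamus. DIRAS3 had 1616 and 1739 RPM in the hypothalamus, 1395 and 1342 RPM in the pituitary and 2.65 and 3.22 RPM in the ovary, nearly equal in hypothalamus and pituitary. Neuronatin (NNAT) was in between, with 633 and 535 RPM in the hypothalamus, 24762 and 22059 RPM in the pituitary and 20.3 and 30.2 RPM in the ovary. The retrotransposon-derived RTL1 had 6.73 and 8.54 RPM in the hypothalamus and at most 1 read in any other library, and PEG3, with 295 and 279 RPM in the hypothalamus, was higher than both tissues. Genes of enzymes also stood out. The steroid 5-alpha reductase SRD5A1 had 90.5 and 99.3 RPM in the hypothalamus, 17.2 and 11.2 RPM in the pituitary and 21.6 and 40.0 RPM in the ovary and was higher than both tissues. AANAT, the melatonin-pathway enzyme best known from the pineal gland, had 5.03 and 8.47 RPM in the hypothalamus and below 1 RPM elsewhere, and the urea cycle gene OTC had 13.8 and 9.93 RPM in the hypothalamus and at most 1 read in any other library. The part of neighbouring tissue in these values was not tested.

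Among gene sets named in the deposited tables, counted here without a set test, 18 of 25 tested genes of nicotine addiction, 32 of 52 of the GABAergic synapse and 46 of 76 of the glutamatergic synapse were called higher than the mean of the other tissues, beside 21.3% of all tested genes. In the other direction, 47 of 85 ribosome genes, 25 of 48 genes of ECM-receptor interaction and 17 of 34 of antigen processing were lower, beside 12%. These sets were picked from 252 with at least 15 tested genes, and a gene can stand in several of them. Of the 1906 genes higher than both tissues, 272 had no symbol in the tables used.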
